A study of Homo sapiens with 6 samples.

Results

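The lysosome and autophagy genes described here are 57 genes that encode enzymes, membrane proteins and regulators of the lysosome and the core machinery of autophagy. They were chosen by symbol from a fixed list, and all 57 were found among the 35410 genes of the count table. RNA was measured by massive analysis of cDNA ends (MACE-Seq), a method that reads only the 3′ end of each polyadenylated transcript, so that counts do not grow with transcript length. According to the labels and the study's methods, 2 derivatives of SEM, an established human proB leukemia line carrying KMT2A::AFF1, were compared with 3 biological replicates each. SEM::EGR3 carried a doxycycline-inducible EGR3 transgene, and SEM::mock carried the empty vector. Both lines received 1 µg/mL doxycycline for 48 h before RNA extraction, so the controls share the drug with the EGR3 expressing cells. Each condition is a single engineered line, and the 3 replicates of a line measure the spread within that line. Differences between the lines other than EGR3 cannot be told apart from an effect of EGR3.

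Lysosomes are acidified organelles in which hydrolases break down proteins, glycans and lipids. Autophagy delivers cytoplasmic material to them in double-membraned vesicles, whose formation runs from an initiating kinase complex through a lipid kinase complex to the conjugation of ATG8 family proteins (LC3 and GABARAP) to the membrane. The MiT/TFE transcription factors TFEB, TFE3 and MITF bind E-box sequences with the core CACGTG at lysosomal and autophagy genes, and Rag GTPases on the lysosome surface recruit both these factors and the growth kinase complex mTORC1.

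The libraries held 5286115 to 6181388 counts in SEM::mock and 7293092 to 15106018 counts in SEM::EGR3, and the 10 most abundant genes took 7.50% to 9.71% of a library. Levels are given as counts per 1000000 counts (CPM), scaled with TMM factors, which correct for differences in library composition. EGR3 itself was counted 8, 10 and 6 times in SEM::mock and 9768, 4952 and 5557 times in SEM::EGR3, in the direction the labels give. Markers of the labelled cell type did not follow the label of the control line, so whether the SEM::mock libraries come from SEM cells is in doubt, and the line names are used here as the labels give them. Of 14 B-lineage genes, 9 had at most 3 counts in every SEM::mock library, among them PAX5 and EBF1, against 3 of 14 in SEM::EGR3, and the summed B-lineage level was 136 to 160 CPM in SEM::mock and 540 to 564 CPM in SEM::EGR3. CD24 alone gave 131, 154 and 145 CPM of the SEM::mock sums, and it was lower in SEM::EGR3, at a mean of 23.4 CPM. The 8 listed targets of KMT2A fusions summed to 33.7 to 40.5 CPM in SEM::mock and 775 to 816 CPM in SEM::EGR3. All 6 genes listed from chromosome 9p21, CDKN2A and MTAP among them, had at most 3 counts in every SEM::mock library and summed to 204 to 207 CPM in SEM::EGR3. The 14 erythroid genes summed to 4970 to 5270 CPM in SEM::mock and 6170 to 6410 CPM in SEM::EGR3, though HBB and HBE1 had at most 3 counts in every library of both lines. In SEM::EGR3, HBZ had a mean of 2110 CPM and HBA1 of 1490 CPM. The label of a proB line does not account for these levels, so the origin of the SEM::EGR3 libraries is in doubt as well and was not tested. Of the 12 myeloid genes analysed, LYZ fell from 154 to 42.5 CPM and CEBPA rose from 12.4 to 126 CPM, and their sum was 297 to 306 CPM in SEM::mock and 236 to 239 CPM in SEM::EGR3. The 8 T cell genes summed to 60.2 to 66.5 CPM in SEM::mock and to 77.8 to 85.5 CPM in SEM::EGR3, with opposite changes behind these sums, as CD3D fell from 58.0 to 6.23 CPM and TRAC rose to 74.4 CPM from counts of 5, 7 and 8 in SEM::mock. These markers moved together with every difference given for the lysosome and autophagy genes, and their part in those differences was not tested.

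To show where the MiT/TFE factors could meet these genes, the promoters held by RefSeq (GRCh38.p14), from 250 bases before to 50 bases after the start site, were searched on both strands for CACGTG. An entry was found for 47 of the 57 members, and 10 of these 47 (21.3%) held the motif, compared with 7.43% of all 27305 promoters of this length. The longer form TCACGTGA, which contains CACGTG, was present in 5 of 47 members (10.6%) and in 1.04% of all promoters. GCGTGGGCG, the consensus of the EGR zinc fingers, was found in 0 of the 47 member promoters and in 0.784% of all promoters. A match describes letters in this window and no binding. The windows of 30 bases below are on the strand of the gene, with CACGTG in capitals. They are shown for the genes with the motif wholly before the start site whose level changed between the lines, CTSD, CTSA, PLIN2, ATG3, NEU1 and BNIP3, and for LAMP1, whose promoter holds the motif most often.
CTSD, chr11:1763957-1763986, minus strand: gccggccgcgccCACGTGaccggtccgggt
CTSA, chr20:45891298-45891327, plus strand: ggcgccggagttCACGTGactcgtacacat
PLIN2, chr9:19127544-19127573, minus strand: gctgccgcgggtCACGTGctgcggaggctt
ATG3, chr3:112561963-112561992, minus strand: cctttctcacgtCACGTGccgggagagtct
NEU1, chr6:31862930-31862959, minus strand: atgctgcgtgatCACGTGggaggagatgag
BNIP3, chr10:131982040-131982069, minus strand: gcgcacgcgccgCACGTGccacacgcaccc
LAMP1, chr13:113297199-113297228, plus strand: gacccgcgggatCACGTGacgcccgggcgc

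Members changed in both directions between SEM::EGR3 and SEM::mock. Of the 57 genes, 54 passed the filter on low counts and were tested, of which 16 were higher in SEM::EGR3, 23 were lower (adjusted p under 0.05, edgeR quasi-likelihood test, Benjamini-Hochberg over 15465 genes), and 15 did not pass. LIPA and ULK2, 2 of the 16 higher members, passed the filter on low counts only through the SEM::EGR3 libraries, so they could be called in that direction alone. The 39 called members are 72.2% of those tested, beside 68.5% of all tested genes. Higher calls made up 29.6% of the members and 36.5% of all genes, lower calls 42.6% of the members and 32.0% of all genes. The libraries of the lines did not overlap for 42 members (77.8%), beside 70.2% of all genes. A change of at least 1 on the log2 scale was found for 11 members (20.4%), beside 25.2% of all genes. The median log2 fold change (SEM::EGR3 minus SEM::mock, here and throughout) was -0.11 over the members and 0.03 over all tested genes. The summed level of all members was 4480, 4530 and 4520 CPM in SEM::mock and 4030, 4070 and 4050 CPM in SEM::EGR3, so the sum was lower in each SEM::EGR3 library than in any SEM::mock library. This sum follows its most abundant genes. Of these, LAMP2 (mean 388 CPM in SEM::mock, 205 CPM in SEM::EGR3), CTSB (354 and 189 CPM) and CTSH (314 and 108 CPM) fell. PSAP (288 and 420 CPM) and CTSD (219 and 421 CPM) rose. The lower sum therefore does not describe the members in general. In these bulk samples, fewer cells with a transcript and less of it per cell cannot be told apart.

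**Figure D1:**
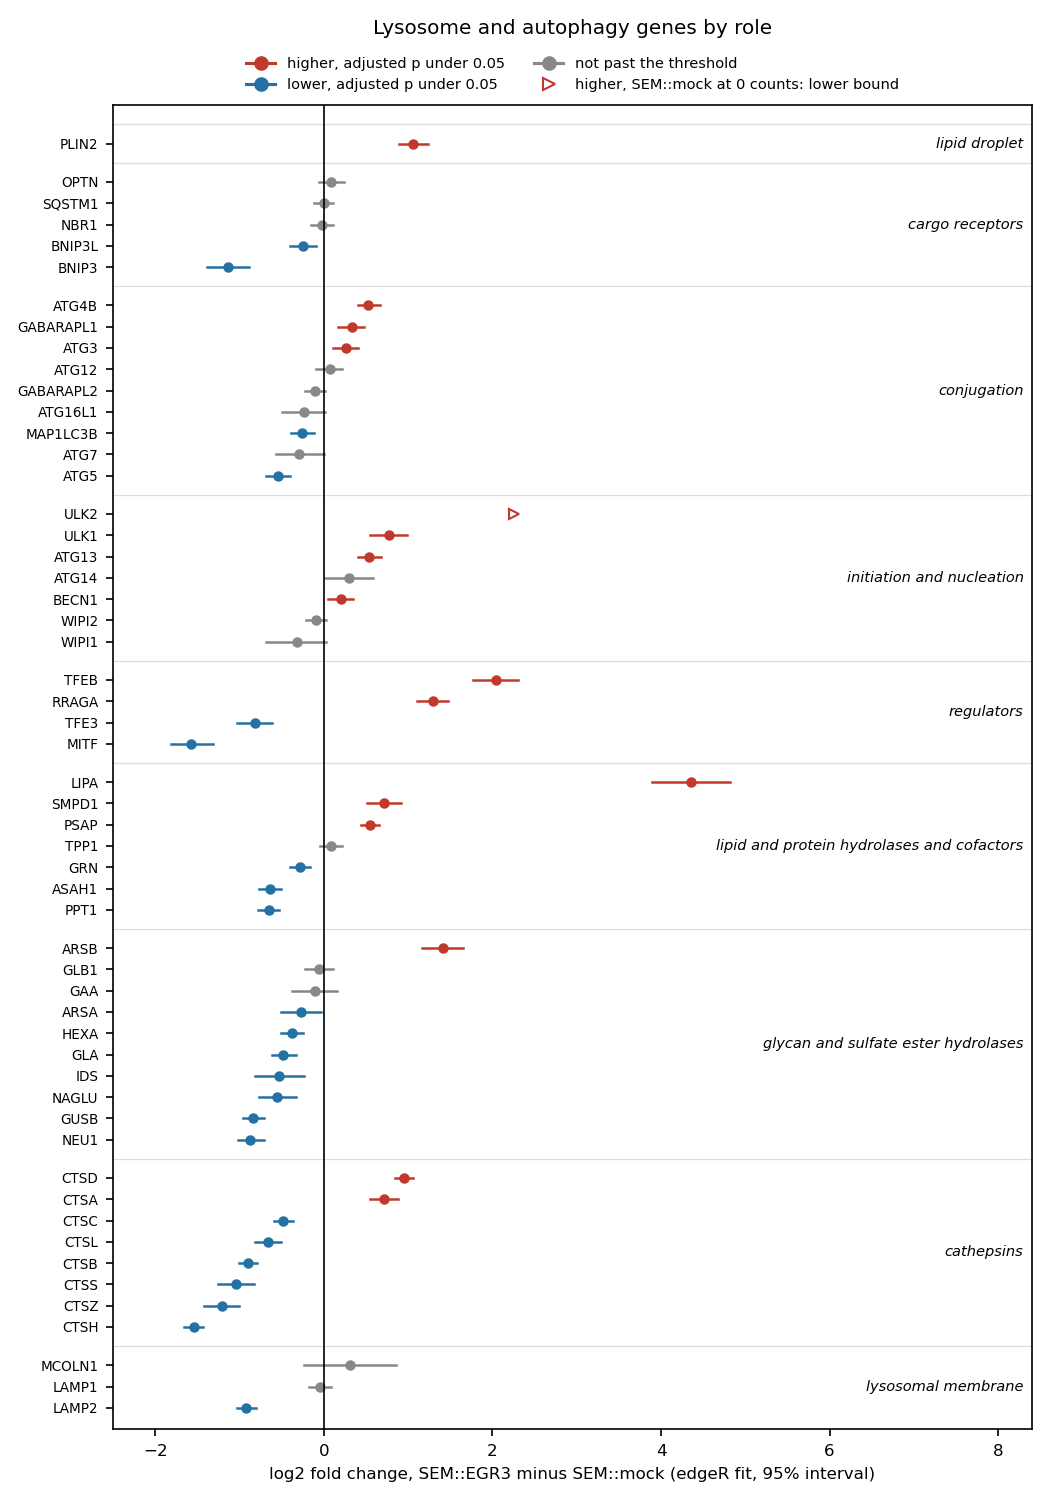
Fitted log2 fold change of the 54 tested members by role, with points for the edgeR estimate and bars for its 95% interval; the open triangle marks the lower bound for ULK2, which had 0 counts in every SEM::mock library. Cathepsins and glycan hydrolases lie mostly left of 0, with 6 of 8 and 7 of 10 called lower, beside 32.0% of all tested genes. No initiation gene was called lower.

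The regulators divided. TFEB rose and its relatives TFE3 and MITF fell. TFEB (chr6:41683978-41736259) was at 9.33, 6.68 and 7.62 CPM in SEM::mock and at 31.7, 35.7 and 29.9 CPM in SEM::EGR3. Every SEM::EGR3 library lay above every SEM::mock library, a 4.12-fold higher mean level (log2 fold change 2.04, SE 0.13, adjusted p = 5.14e-13 in edgeR). MITF (chr3:69739435-69968337) was at 25.2, 30.7 and 29.3 CPM in SEM::mock and at 10.0, 10.1 and 8.47 CPM in SEM::EGR3. The libraries of the lines did not overlap, and the mean was 2.99-fold lower in SEM::EGR3 (log2 fold change -1.57, SE 0.12, adjusted p = 1.46e-11 in edgeR). TFE3 (chrX:49028726-49043486) fell less, from 29.9, 28.2 and 25.8 CPM to 15.8, 14.9 and 16.8 CPM. Its log2 fold change was -0.82 (SE 0.10, adjusted p = 1.29e-07 in edgeR), again without overlap. RRAGA, one of the Rag GTPases that hold mTORC1 and the MiT/TFE factors at the lysosome, was at 22.4, 22.0 and 19.7 CPM in SEM::mock and at 52.8, 49.2 and 54.6 CPM in SEM::EGR3. It was higher in all 3 SEM::EGR3 libraries, by 2.44-fold in the mean (log2 fold change 1.29, SE 0.09, adjusted p = 1.88e-12 in edgeR). The summed level of these 4 genes was 82.5 to 87.6 CPM in SEM::mock and 110 CPM in each SEM::EGR3 library.

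The genes whose promoter holds CACGTG did not move in 1 direction. Of the 10 such members, all tested, 4 rose (CTSD, CTSA, PLIN2 and ATG3), NEU1 and BNIP3 fell and 4 did not pass the test (LAMP1, MCOLN1, GAA and ATG14), with a median log2 fold change of 0.28. Among the 34 tested members with a promoter entry and no such motif, 10 rose, 13 fell and 11 did not pass, with a median of -0.10. Over all tested genes, 36.5% rose and 32.0% fell, with a median of 0.03. These numbers are a description, without a test between the groups.

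**Figure D2:**
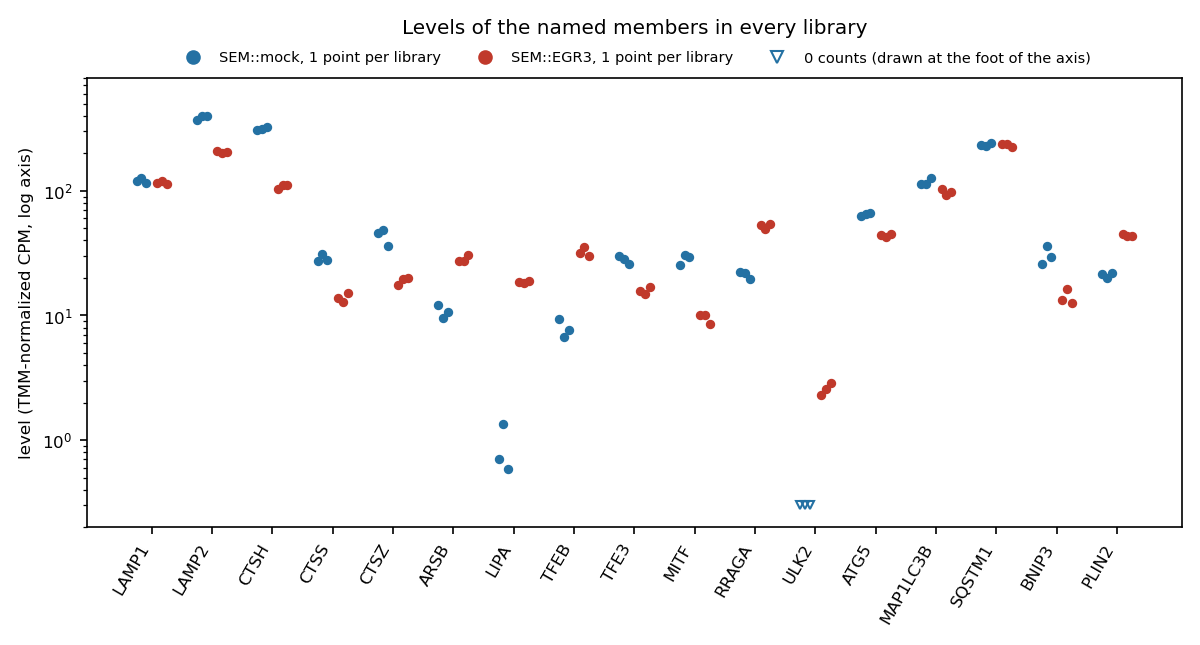
Level of 17 members in each library, on a log axis of TMM-scaled CPM, with 1 point per library, SEM::mock in blue and SEM::EGR3 in red; open triangles stand for 0 counts. The points of the lines are apart for TFEB, MITF, LIPA and CTSH and mixed for LAMP1 and SQSTM1.

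The lysosomal membrane proteins differed from each other. LAMP2, a major glycoprotein of the lysosomal membrane with a part in chaperone-mediated autophagy, was at 369, 395 and 400 CPM in SEM::mock and at 207, 202 and 205 CPM in SEM::EGR3. Each SEM::EGR3 library lay below all SEM::mock libraries, with a 1.89-fold lower mean (log2 fold change -0.92, SE 0.05, adjusted p = 7.87e-14 in edgeR). LAMP1, the related glycoprotein, had 119, 126 and 115 CPM in SEM::mock and 115, 120 and 114 CPM in SEM::EGR3. Its groups overlapped, and the 95% interval of the log2 fold change reached from -0.17 to 0.08. MCOLN1, a calcium channel of the lysosome, was low in both lines, with counts of 12, 15 and 10 in SEM::mock, compared with 43, 19 and 26 in SEM::EGR3. It did not pass the test (log2 fold change 0.31, SE 0.27, adjusted p = 0.312 in edgeR).

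All 8 cathepsins changed, beside 68.5% of all genes. Of these, 6 fell (75%, beside 32.0% of all genes) and 2 rose (25%, beside 36.5%), with a median log2 fold change of -0.78. The largest decrease was that of CTSH, an aminopeptidase, which was at 306, 312 and 323 CPM in SEM::mock and at 103, 111 and 111 CPM in SEM::EGR3. The groups lay far apart, at a 2.91-fold lower mean (log2 fold change -1.54, SE 0.06, adjusted p = 8.45e-18 in edgeR). CTSZ, a carboxypeptidase, had 46.0, 48.1 and 36.2 CPM in SEM::mock and 17.6, 19.6 and 19.9 CPM in SEM::EGR3. SEM::mock replicate 3 was the lowest of its group and still above all SEM::EGR3 libraries (log2 fold change -1.21, SE 0.10, adjusted p = 1.37e-10 in edgeR). CTSS, which trims the invariant chain of MHC class II in antigen presenting cells, was at 27.5, 31.0 and 27.9 CPM in SEM::mock and at 13.9, 12.9 and 15.1 CPM in SEM::EGR3. It was lower in each SEM::EGR3 library (log2 fold change -1.04, SE 0.10, adjusted p = 3.21e-09 in edgeR). The endopeptidases CTSB (354 ± 13.1 to 189 ± 5.36 CPM, SD, n = 3) and CTSL (70.6 ± 5.69 to 44.1 ± 2.55 CPM) and the dipeptidyl peptidase CTSC (log2 fold change -0.48) fell as well. The aspartic protease CTSD rose from 219 ± 1.57 to 421 ± 16.9 CPM, and CTSA, a carboxypeptidase that protects neuraminidase 1 and beta-galactosidase in a complex, rose from 46.4 ± 5.06 to 76.5 ± 5.71 CPM. CTSA was thus higher while NEU1, which encodes neuraminidase 1, was lower, and GLB1, which encodes beta-galactosidase, did not pass the test. The summed level of the 8 cathepsins was 1210 to 1220 CPM in SEM::mock and 949 to 993 CPM in SEM::EGR3.

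The hydrolases of glycans and sulfate esters were mostly lower. Of 11, 10 were tested, 7 fell (70%, beside 32.0% of all genes) and ARSB rose (10%, beside 36.5%). GAA and GLB1 did not pass, and the median log2 fold change was -0.43. ARSB, a sulfatase of dermatan and chondroitin sulfate, was at 12.2, 9.51 and 10.6 CPM in SEM::mock and at 27.5, 27.4 and 30.6 CPM in SEM::EGR3. No SEM::mock library reached the SEM::EGR3 libraries, and the mean was 2.65-fold higher (log2 fold change 1.41, SE 0.12, adjusted p = 1.05e-10 in edgeR). The members that fell were led by NEU1 (72.3 ± 4.20 to 40.0 ± 2.66 CPM, SD, n = 3) and the beta-glucuronidase GUSB (145 ± 7.77 to 80.9 ± 0.549 CPM). NAGLU and IDS, enzymes of heparan sulfate breakdown, had log2 fold changes of -0.55 and -0.53, and alpha-galactosidase A (GLA) and the hexosaminidase subunit HEXA had -0.48 and -0.38. The call of ARSA, the sulfatase of sulfatides, was the weakest, with overlapping libraries (18.8, 23.0 and 17.2 CPM against 17.3, 15.0 and 16.4 CPM) and an adjusted p of 0.0467 in edgeR. MAN2B1, an alpha-mannosidase, had counts of 2, 1 and 3 in SEM::mock, compared with 3, 0 and 1 in SEM::EGR3 and was not tested. The summed level of the group was 487 to 511 CPM in SEM::mock and 353 to 364 CPM in SEM::EGR3.

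Genes of lipid and protein breakdown were divided, with 3 higher (42.9%, beside 36.5% of all genes), 3 lower (42.9%, beside 32.0%) and 1 not past the test. The largest difference among the members with counts in both lines was that of LIPA (chr10:89213569-89414557), the acid lipase that frees cholesterol and fatty acids from cholesteryl esters and triglycerides. LIPA counts were 4, 8 and 3 in SEM::mock, compared with 289, 136 and 171 in SEM::EGR3. In levels this was 0.704, 1.34 and 0.586 CPM against 18.5, 18.2 and 18.8 CPM, without overlap between the lines (fitted log2 fold change 4.35, SE 0.23). No p is given for LIPA, since it was tested only because of its SEM::EGR3 libraries. The acid sphingomyelinase SMPD1 rose from 24.1 ± 3.74 to 39.5 ± 1.35 CPM (SD, n = 3), and PSAP, the precursor of the saposins that present sphingolipids to their hydrolases, rose from 288 ± 5.74 to 420 ± 11.2 CPM. The acid ceramidase ASAH1 fell from 88.9 ± 1.37 to 56.9 ± 1.43 CPM, the palmitoyl thioesterase PPT1 from 200 ± 16.1 to 127 ± 4.77 CPM, and progranulin (GRN) from 165 ± 7.65 to 136 ± 2.89 CPM. For the tripeptidyl peptidase TPP1 the log2 fold change was 0.09 (95% interval -0.04 to 0.21). The group sum was 843 to 875 CPM in SEM::mock and 885 to 913 CPM in SEM::EGR3, the ranges close to each other without overlap.

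**Figure D3:**
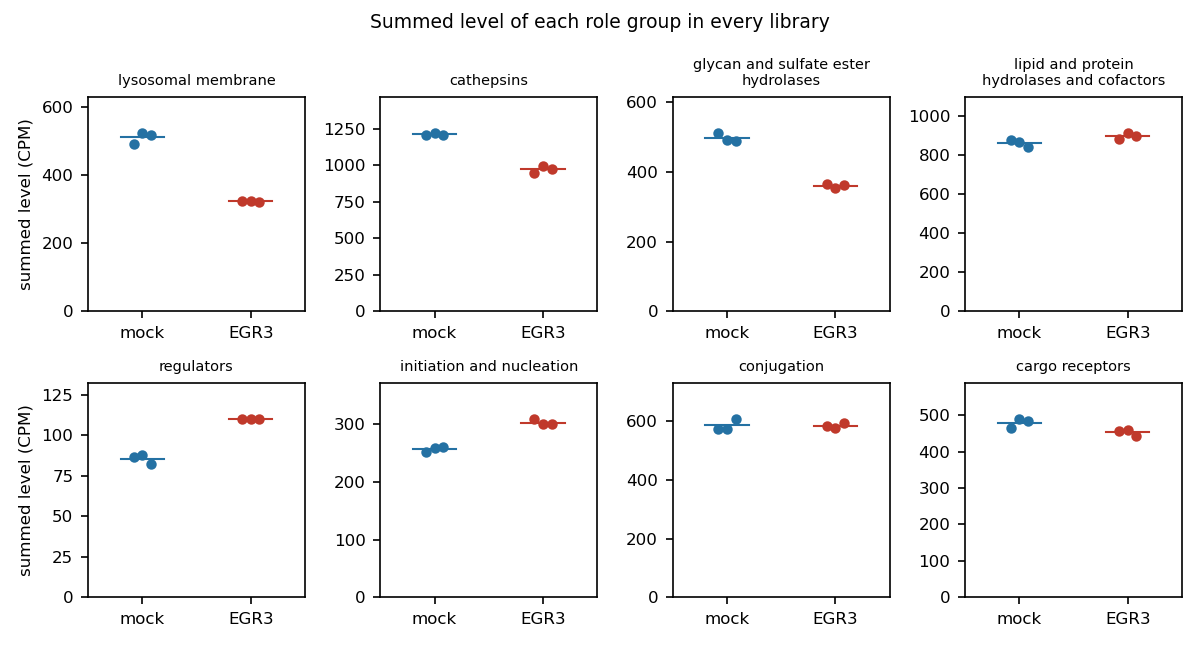
Summed CPM level of each role group in every library, with 1 point per library and a line at the mean of 3; each axis starts at 0. The sums of membrane proteins, cathepsins, glycan hydrolases and cargo receptors were lower in all SEM::EGR3 libraries. Those of regulators, initiation genes and lipid and protein hydrolases were higher. The cargo receptor ranges lay close, at 464 to 489 CPM in SEM::mock and 443 to 459 CPM in SEM::EGR3. The conjugation sums of 573 to 606 CPM and 576 to 592 CPM overlapped. A sum follows its most abundant genes: LAMP2 was the only membrane gene called, and TFE3 and MITF fell within the higher regulator sum.

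The genes that start an autophagosome showed increases and no decrease past the test. Of 8, 7 were tested, 4 were called higher, beside 36.5% of all genes, and 3 did not pass, with a median log2 fold change of 0.30. Of these 4, ULK2 had no counts in SEM::mock and BECN1 lost its call in 4 of the alternatives tried. ULK2 (chr17:19770829-19867936), a kinase of the initiating complex, had 0 counts in all 3 SEM::mock libraries, while SEM::EGR3 gave 36, 19 and 26. Against a floor of 3 counts per SEM::mock library its level in SEM::EGR3 was at least 4.78-fold higher, a bound for counting error only and given without a p, since this gene also entered the test through SEM::EGR3 alone. The median of the group stays at 0.30 with ULK2 at this bound, since the gene remains the highest of the 7. Its paralog ULK1 rose from 20.8, 20.2 and 22.7 CPM to 40.8, 31.8 and 33.3 CPM, and ATG13, the partner of both kinases, rose from 53.4, 63.4 and 58.0 CPM to 85.1, 86.3 and 82.8 CPM. Neither gene overlapped between the lines, with log2 fold changes of 0.77 (SE 0.11) and 0.54 (SE 0.07). Beclin 1 (BECN1), a subunit of the lipid kinase complex, was at 57.5 ± 3.60 CPM and 65.8 ± 4.02 CPM (SD, n = 3), with a log2 fold change of 0.20 (SE 0.07, adjusted p = 0.0172 in edgeR). This call depended on single libraries, with adjusted p of 0.123, 0.0717 and 0.0893 in edgeR without SEM::mock replicate 2, SEM::mock replicate 3 or SEM::EGR3 replicate 3. ATG14, which directs the lipid kinase to autophagy, had a log2 fold change of 0.30 (95% interval 0.02 to 0.58, adjusted p = 0.0545 in edgeR). The phosphoinositide-binding proteins WIPI1 and WIPI2 had -0.32 and -0.09 and did not pass. ATG9A, the membrane protein that seeds autophagosomes, had counts of 0, 0 and 1 in SEM::mock, compared with 2, 0 and 2 in SEM::EGR3 and was not tested.

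In the conjugation machinery the changes were small. Of 10 members, 9 were tested, 3 rose (33.3%, beside 36.5% of all genes), 2 fell (22.2%, beside 32.0%) and 4 did not pass. No absolute log2 fold change exceeded that of ATG5. ATG5, which forms the lipidating enzyme with ATG12 and ATG16L1, was at 62.7, 64.6 and 66.1 CPM in SEM::mock and at 44.6, 43.0 and 44.9 CPM in SEM::EGR3. It was lower in each SEM::EGR3 library (log2 fold change -0.54, SE 0.07, adjusted p = 1.68e-07 in edgeR). MAP1LC3B, which encodes the LC3 protein used as the common autophagosome marker, was at 113, 113 and 127 CPM and at 104, 92.0 and 98.2 CPM. The groups were close and did not overlap (log2 fold change -0.26, SE 0.06, adjusted p = 0.00117 in edgeR), and its near-identical copy MAP1LC3B2 had -0.31, so that reads of these genes may have been divided between them. The protease ATG4B (log2 fold change 0.53), the conjugating enzyme ATG3 (0.26) and the ATG8 family member GABARAPL1 (0.33) rose. GABARAPL2 (-0.10), ATG12 (0.07), ATG16L1 (-0.23) and the activating enzyme ATG7 (-0.29) did not pass. GABARAP had counts of 3, 3 and 0 in SEM::mock, compared with 6, 1 and 1 in SEM::EGR3 and was not tested.

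Of the 5 cargo receptors, BNIP3 and BNIP3L were lower (40%, beside 32.0% of all genes) and SQSTM1, NBR1 and OPTN did not pass the test. BNIP3, a hypoxia-responsive receptor on mitochondria, was at 25.9, 36.2 and 29.3 CPM in SEM::mock and at 13.3, 16.2 and 12.7 CPM in SEM::EGR3. The highest SEM::EGR3 library lay below the lowest SEM::mock library, and the mean was 2.17-fold lower (log2 fold change -1.14, SE 0.12, adjusted p = 1.04e-08 in edgeR). Its relative BNIP3L fell from 71.5 ± 7.85 to 59.9 ± 2.19 CPM (SD, n = 3, log2 fold change -0.25). SQSTM1, which encodes the ubiquitin receptor p62, was at 232, 227 and 241 CPM in SEM::mock and at 236, 236 and 224 CPM in SEM::EGR3. These values overlapped, and the 95% interval of the log2 fold change was -0.12 to 0.11. The ubiquitin receptors NBR1 (95% interval -0.15 to 0.11) and OPTN (-0.06 to 0.24) did not pass the test either.

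PLIN2, which coats lipid droplets, a cargo of lysosomal lipid breakdown, was at 21.5, 20.0 and 21.9 CPM in SEM::mock and at 45.1, 43.4 and 43.5 CPM in SEM::EGR3. All SEM::EGR3 libraries were higher, with a 2.08-fold higher mean (log2 fold change 1.06, SE 0.09, adjusted p = 7.04e-11 in edgeR). PLIN2 and RRAGA, both higher, are neighbours on the short arm of chromosome 9, with 57392 bases between them in GENCODE release 29 (GRCh38), on the side of the 9p21 genes that points to the end of the arm. Of the 52 other tested genes of chromosome 9 that start before FOCAD, 26 rose and 12 fell, with a median log2 fold change of 0.46, beside 36.5% higher and a median of 0.03 over all tested genes. On chromosome 9 beyond position 60000000, 182 of 455 tested genes rose, beside 136 that fell, with a median of 0.07. Within 1000000 bases of RRAGA, 6 of 9 other tested genes rose and 1 fell, with a median log2 fold change of 0.76. The values for PLIN2 were the same, and each of the 2 genes is counted as a neighbour of the other. As examples from the other members, 7 of 9 tested genes rose near ASAH1, which fell (median 0.71). Near LAMP2, which also fell, 18 of 26 fell (median -0.33). This look at the neighbours was added after the values of PLIN2 and RRAGA were seen, and the part of the chromosome in their increase was not tested.

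For 11 of the 57 members an exon of another gene lies within the last 500 bases, where MACE-Seq reads fall. In MAN2B1, ATG9A, GABARAP and MCOLN1 that exon is on the same strand. The 3 untested members are among these 4, and MCOLN1 was the least counted of the tested membrane genes. Whether reads in such an overlap were left uncounted was not tested. CTSA, PPT1, BECN1, WIPI1, ATG7, SQSTM1 and BNIP3L have an overlap with the opposite strand, and the strand setting of the counting is not given in the sources used here.

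Other genes of the same pathways (companions) were read from a list of 105, grouped by role and not by their change. Of these, 99 were tested, 26 rose (26.3%, beside 36.5% of all genes) and 38 fell (38.4%, beside 32.0%). The other 35 did not pass. The called share was 64.6%, beside 68.5% of all genes, and the median log2 fold change was -0.02. The companion group of nutrient sensing at the lysosome held genes of mTORC1, the Ragulator complex, other Rag GTPases and further regulators of mTORC1. In this mixed group, 10 of 19 tested fell (52.6%, beside 32.0% of all genes) and 3 rose (15.8%, beside 36.5%). Those that fell included MTOR (-0.47), AKT1S1 (-0.34) and the arginine sensor SLC38A9 (-0.75). Those that rose were RRAGD (0.86), TSC1 (0.29) and TSC2 (0.78), and RHEB (0.04) did not pass the test. Activity of the pathway was not measured. Subunits of the V-ATPase, the proton pump of the lysosome, fell in 5 of 15 tested (33.3%, near the 32.0% of all genes) and rose in 2 (13.3%, beside 36.5%). Further autophagosome genes fell in 9 of 20 (45%, beside 32.0% of all genes) and rose in 4 (20%, beside 36.5%).

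Further hydrolases held the larger changes, with 7 of 16 tested higher (43.8%, beside 36.5% of all genes) and 6 lower (37.5%, beside 32.0%). The cathepsin CTSW, known from cytotoxic lymphocytes, had counts of 2, 0 and 0 in SEM::mock, compared with 48, 19 and 28 in SEM::EGR3, and was at least 5.39-fold higher. Like LIPA and ULK2, CTSW passed the filter on low counts only through the SEM::EGR3 libraries. It is among the companions counted as higher and could be called in that direction alone. CTSO rose from 13, 12 and 8 counts to 84, 45 and 60 counts (log2 fold change 1.58, SE 0.24). These genes separated the lines at low counts. The heparan sulfatase SGSH was at 26, 37 and 35 counts in SEM::mock and at 33, 12 and 20 counts in the larger SEM::EGR3 libraries (log2 fold change -1.52, SE 0.24). The fucosidase FUCA1 fell from 151 ± 9.66 to 53.9 ± 2.93 CPM (SD, n = 3, log2 fold change -1.49). Of the membrane and sorting genes, 5 of 15 rose (33.3%, beside 36.5% of all genes) and 5 fell (33.3%, beside 32.0%). The sialic acid transporter SLC17A5 rose from 10.0 ± 2.31 to 23.1 ± 0.0906 CPM. Of the fusion genes and other receptors, 5 of 14 rose (35.7%, beside 36.5% of all genes) and 3 fell (21.4%, beside 32.0%). PINK1, the kinase that marks damaged mitochondria for autophagy, was higher at 84.8 ± 4.06 CPM against 33.4 ± 2.29 CPM. FUNDC1, a mitochondrial receptor like BNIP3, had overlapping libraries and a 95% interval of the log2 fold change from -0.21 to 0.21.

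**Figure D4:**
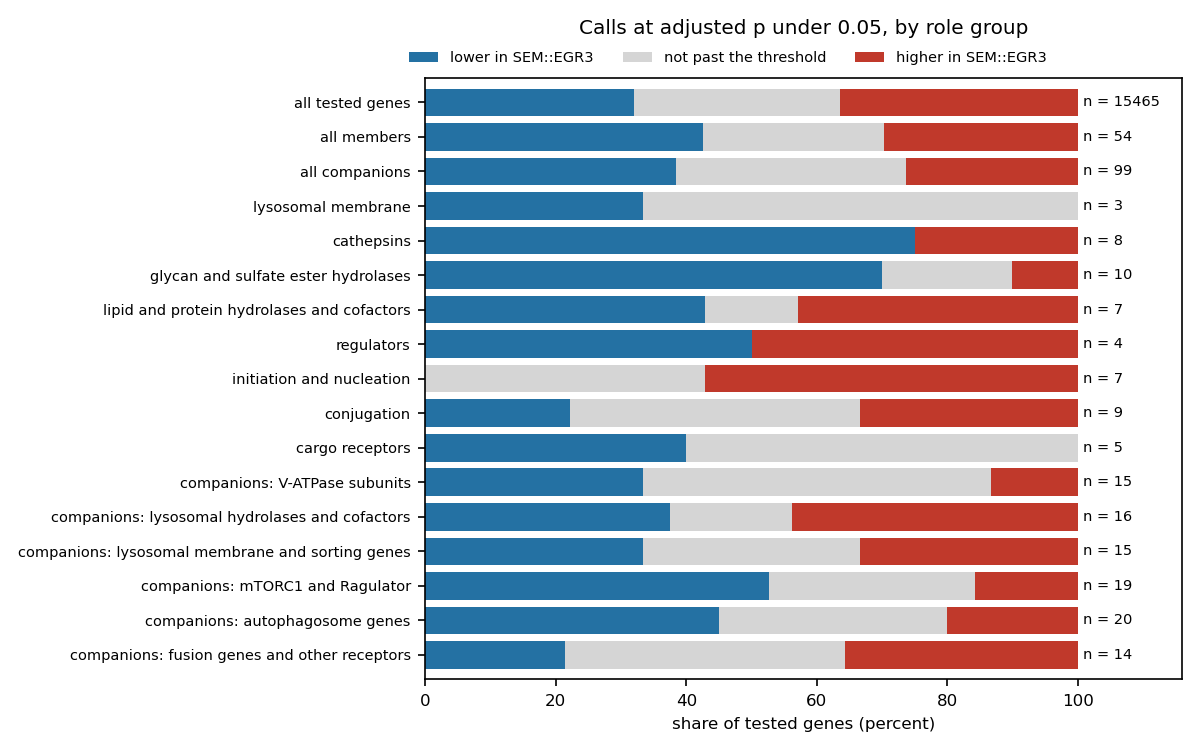
Share of tested genes called lower, not past the threshold and called higher in SEM::EGR3 (edgeR, adjusted p under 0.05) for all 15465 tested genes, all 54 tested members, all 99 tested companion genes and each role group, with n at the right. Lower calls took 42.6% of the members and 32.0% of all genes.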

How the data were processed

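RNA of 3 SEM::mock and 3 SEM::EGR3 replicates was measured by MACE-Seq, and the labels gave each library's line and replicate number. The submitters' processing notes name bcl2fastq, Bowtie2, HTSeq and GRCh38. Versions, annotation, strand setting and the use of molecular identifiers are not given in the sources used here. The authors deposited raw counts per gene and library. They also deposited CPM values (named TPM in the headers, without length correction) and a size-factor signal, both constant multiples of the counts in each library and not used for results. Their own fold changes and p-values were not used. The headings spell the transgene ERG3 and were read as the EGR3 line.

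The test was edgeR 4.0.16 in R 4.3.3 (filterByExpr, TMM, glmQLFit and glmQLFTest over all 6 libraries, no covariate), and p-values were adjusted by Benjamini-Hochberg over 15465 genes. The SE is the absolute log2 fold change divided by the square root of F. Levels are counts per 1000000 counts of the listed genes with TMM factors. At most 3 counts in every library of a line counted as the detection floor, for counting error only. The edgeR test was tried on data simulated for this comparison with 2-fold changes. There, 180 of 192 changed genes (93.8%) were recovered with 13 false calls among 15047 genes. So few changed genes differ from the real data, where 68.5% of tested genes were called. The simulation therefore does not show how the test and the TMM factors behave under changes this widespread. Replicates differed beyond counting noise (chi-square per degree of freedom 1.73 to 3.21).

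The members and lists were chosen with earlier results of these data known. Members are given per library if they changed by at least 1 on the log2 scale at an adjusted p under 0.05, changed most in their role group, or are TFEB, TFE3, MITF, LAMP1, LAMP2, MAP1LC3B or SQSTM1. Other genes of the pathways are named by the same size, at most 4 per group, and a few more as examples chosen after their values were seen. Positions come from GENCODE release 29, promoters from RefSeq. Not analysed here were the promoters of LAMP2, CTSB, CTSS, HEXA, ARSA, NAGLU, ASAH1, PSAP, RRAGA and BNIP3L, and the myeloid markers ELANE and FCN1. Alternatives were DESeq2 1.42.0, no normalization factors, upper-quartile and RLE factors, no filter on low counts, a stricter one (10 counts or more per library), a replicate block and leaving out each library.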

Additional observations from a re-analysis of the deposited data

How the results depend on the processing

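Over 13 alternatives, 13 members were called higher and 22 lower in each, and no member was called in the opposite direction in any. LIPA and ULK2 were not tested under the filter of at least 10 counts in every library. The median log2 fold change of the members, -0.11, was -0.03 without normalization factors, where the median of all genes was 0.11, and leaving out single libraries gave -0.16 to -0.09. The counts of higher and lower members were 15 to 19 and 22 to 24. ARSA lost its call in 9 of the 13, among them leaving out SEM::mock replicate 2 (adjusted p = 0.321 in edgeR), SEM::EGR3 replicate 2 (0.11) or SEM::EGR3 replicate 3 (0.0799). BECN1 lost its call in 4, as given above and with DESeq2 (adjusted p = 0.0612). ATG7 was called lower without SEM::mock replicate 1 (adjusted p = 0.0351 in edgeR) or SEM::EGR3 replicate 1 (0.0245), WIPI1 (0.0452) and ATG16L1 (0.0114) without SEM::EGR3 replicate 2. ATG14 was called higher without normalization factors, with upper-quartile factors and under the stricter filter, and TPP1 and OPTN without normalization factors. The labels do not say whether equal replicate numbers mark pairs. Same-numbered libraries deviated with correlations of -0.11, -0.06 and -0.03, beside -0.01 to 0.07 for the other combinations. These values showed no pairing by number, but they cannot exclude one. With the replicate number as a block, 16 members were higher and 22 lower, and the lost call was that of ARSA.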
